A study of Mus musculus with 2 samples.

Results

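The Sox2 locus in mouse embryonic stem cells (ESCs) was examined through every distinct Nanog peak whose middle base lay within 250 kb of the Sox2 transcription start site (TSS). The TSS was the 5′ end of the gene in GENCODE vM21 on the genome build mm10. There were 8 such peaks out of 8735 distinct Nanog peaks on chromosomes 1 to 19 and X. The peaks came from chromatin immunoprecipitation followed by sequencing (ChIP-seq) in Bruce-4 cells, an ESC line grown with serum and leukemia inhibitory factor. The study's series holds 1 sample precipitated with an anti-Nanog antibody and 1 input sample, which is sonicated chromatin without antibody. There were no replicates, so no value below carries a replicate error and no test was made. The deposited list states where each peak lies and nothing about its height or the reads behind it, and a site below the peak caller's threshold cannot be told from an unbound one.

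Sox2 is an HMG-box transcription factor of the core network that keeps ESCs pluripotent, and it often binds DNA next to Oct4 (encoded by Pou5f1) on a composite motif of a Sox site beside an octamer. Nanog is a homeodomain transcription factor of the same network and occupies many enhancers together with Oct4 and Sox2. Sox2 sits in a long stretch of genome without other protein-coding genes, inside the transcription unit of the long non-coding RNA Sox2ot, and a cluster of enhancers far downstream of the gene, known as its distal control region, is required for Sox2 expression in mouse ESCs. The files used here hold no coordinates for that region. The group of peaks far downstream is therefore called the downstream stretch, and its identity with the control region was not tested.

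The peaks were lettered A to H in the order of the chromosome. The sequences of 6 of them are shown, from GRCm38 (the assembly that mm10 denotes), plus strand, 5′ to 3′. Peak B is shown whole because it alone held the composite Oct4-Sox2 motif. Peaks D to H are shown because they made up the downstream stretch, each by a window of 300 bases that covers the middle of the peak. Capitals mark matches to the composite, octamer, Sox, Nanog, Klf and Esrrb motifs described further on.
Peak B, chr3:34653957-34654214: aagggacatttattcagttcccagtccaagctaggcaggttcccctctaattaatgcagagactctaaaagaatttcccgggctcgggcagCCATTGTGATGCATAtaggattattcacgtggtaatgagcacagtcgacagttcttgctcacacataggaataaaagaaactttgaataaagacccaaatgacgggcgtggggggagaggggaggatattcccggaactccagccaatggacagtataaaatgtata
Peak D, chr3:34735015-34735314: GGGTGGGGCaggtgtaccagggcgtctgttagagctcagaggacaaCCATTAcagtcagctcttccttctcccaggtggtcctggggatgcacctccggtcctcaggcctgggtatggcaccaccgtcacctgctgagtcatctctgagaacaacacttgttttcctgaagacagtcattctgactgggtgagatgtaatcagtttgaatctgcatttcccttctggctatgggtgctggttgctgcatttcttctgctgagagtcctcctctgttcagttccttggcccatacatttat
Peak E, chr3:34745304-34745603: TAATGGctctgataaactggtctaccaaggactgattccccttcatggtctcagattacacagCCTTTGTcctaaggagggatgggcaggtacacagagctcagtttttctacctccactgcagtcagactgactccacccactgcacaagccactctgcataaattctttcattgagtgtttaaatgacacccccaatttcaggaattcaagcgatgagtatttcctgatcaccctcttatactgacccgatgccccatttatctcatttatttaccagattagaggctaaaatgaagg
Peak F, chr3:34756795-34757094: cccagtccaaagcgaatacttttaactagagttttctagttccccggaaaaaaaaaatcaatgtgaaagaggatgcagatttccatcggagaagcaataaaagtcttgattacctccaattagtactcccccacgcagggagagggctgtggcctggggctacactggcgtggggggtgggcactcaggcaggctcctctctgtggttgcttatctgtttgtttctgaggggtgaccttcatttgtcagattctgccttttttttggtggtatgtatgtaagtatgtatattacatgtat
Peak G, chr3:34757900-34758199: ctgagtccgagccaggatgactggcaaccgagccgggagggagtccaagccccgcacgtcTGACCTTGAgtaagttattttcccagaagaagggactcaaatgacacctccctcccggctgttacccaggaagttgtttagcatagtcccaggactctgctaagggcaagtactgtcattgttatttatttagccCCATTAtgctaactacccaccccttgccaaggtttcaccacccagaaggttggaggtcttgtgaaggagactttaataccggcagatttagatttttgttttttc
Peak H, chr3:34761240-34761539: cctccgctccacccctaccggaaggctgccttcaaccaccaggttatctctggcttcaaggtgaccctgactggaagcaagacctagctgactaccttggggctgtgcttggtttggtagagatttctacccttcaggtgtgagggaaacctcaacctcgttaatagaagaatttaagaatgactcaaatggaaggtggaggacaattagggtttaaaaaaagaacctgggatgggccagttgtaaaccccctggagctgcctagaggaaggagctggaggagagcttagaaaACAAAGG

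Sox2 (ENSMUSG00000074637.7, chr3:34650405-34652461, plus strand, 1 annotated transcript) had 1 Nanog peak upstream and 7 downstream. No peak covered the TSS or any annotated exon. Peak A (chr3:34646252-34646584) was 333 bp wide, with its centre 3.987 kb upstream of the TSS. Peak B (chr3:34653957-34654214) was 258 bp wide, 3.68 kb downstream of the TSS and 1.624 kb beyond the 3′ end of the gene. Peak C (chr3:34668502-34668769) was 268 bp wide and lay 18.23 kb downstream. These 3 peaks near the gene all lay in introns of Sox2ot (ENSMUSG00000105265.4, chr3:34104270-34682619, plus strand). No peak was found over the next 66.54 kb, measured from the centre of C to the centre of D.

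The other 5 peaks were intergenic and lay together beyond the end of Sox2ot. Peak D (chr3:34734948-34735399) was 452 bp wide, and its centre was 84.77 kb downstream of the Sox2 TSS. Peak E (chr3:34745177-34745735), the widest of the 8 at 559 bp, lay at 95.05 kb. Peak F (chr3:34756681-34757209) was 529 bp wide and lay at 106.5 kb. Peak G (chr3:34757856-34758244) was 389 bp wide and lay at 107.6 kb. Peak H (chr3:34761159-34761615) was 457 bp wide and lay at 111.0 kb.

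**Figure D1:**
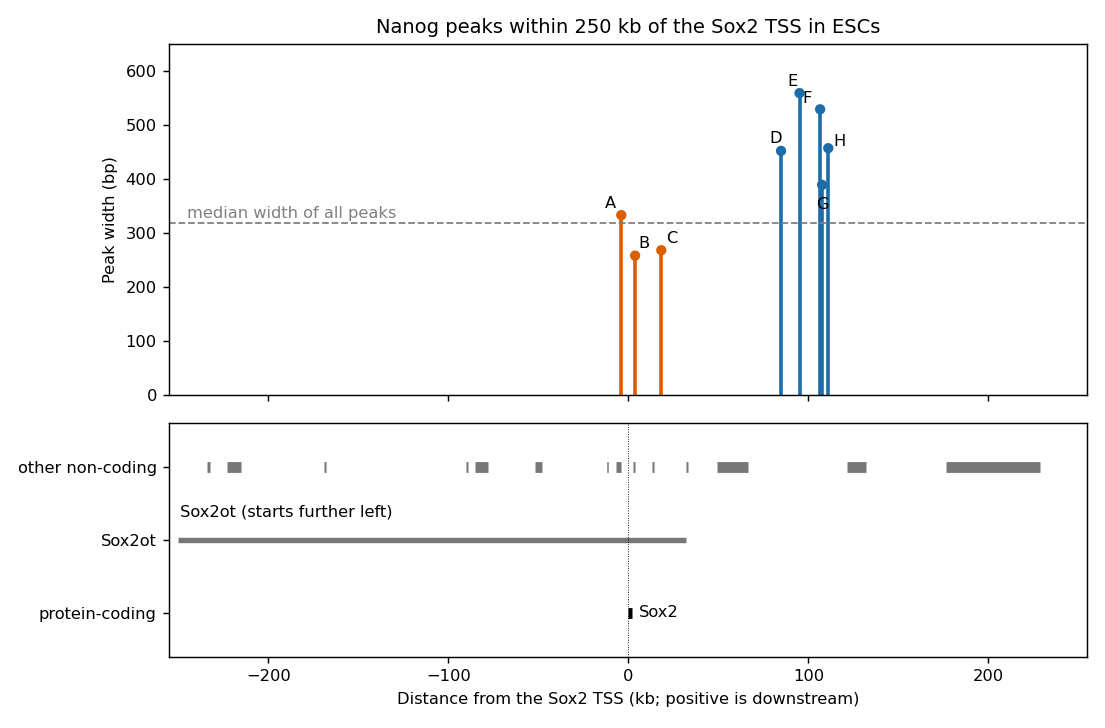
Nanog peaks by distance of their centre from the Sox2 TSS (kb, horizontal axis), with height showing peak width (bp), orange for peaks A to C and blue for the downstream stretch D to H, and annotated genes in the lower panel. The 5 blue peaks are 389 to 559 bp wide and lie 84.77 to 111.0 kb downstream, and all stand above the dashed line at 319 bp, the median width of all 8735 peaks.

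Beyond the 250 kb window the list was empty over long distances. The next peak upstream (chr3:34234978-34235212, 235 bp) was 415.3 kb from the TSS and 411.3 kb from peak A. The next downstream (chr3:35317498-35317769, 272 bp) was 667.2 kb from the TSS and 556.2 kb from peak H. The 8 peaks therefore stood apart from their neighbours on both sides by far more than the width of the group.

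Sox2 was the nearest protein-coding gene of all 8 peaks. The protein-coding gene next upstream was Dnajc19 (ENSMUSG00000027679.13), which encodes a mitochondrial inner membrane protein, with its TSS 569.1 kb away. It had 2 Nanog peaks within 250 kb, the closest at 75.63 kb. The next downstream was Atp11b (ENSMUSG00000037400.17), which encodes a phospholipid-transporting ATPase, 1104 kb away. It had 1 Nanog peak within 250 kb, at 62.89 kb. Among all annotated genes, Sox2 was the nearest for 0 of the 8, because 16 non-coding genes also overlapped the window. The closest TSS was that of Gm38509, a long intergenic non-coding RNA, for 4 peaks (E to H, from 10.69 to 26.62 kb), and that of Gm42692, Gm27611, Gm42693 and Gm3143 for A, B, C and D. Gm42692 came closest to overlap, with an exon 156 bp from peak A. Assignment by the nearest gene of any kind would thus have given none of these peaks to Sox2.

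Compared with other protein-coding genes, Sox2 had many Nanog peaks. The median of 21755 protein-coding genes was 2 peaks within 250 kb (quartiles 1 and 4, highest 15), and 4265 of them (19.6%) had none. Of these genes, 506 including Sox2 had at least 8 peaks, which is 2.33% (exact 95% interval 2.13% to 2.53%, counting error only). There were 263 genes with more peaks and 242 others with the same number. Many genes with high counts share their window, and hence their peaks, with neighbours, so genes are not independent here. Sox2 shares its window with no other protein-coding TSS. Among the 796 protein-coding genes of which this is true, the median was 1 peak (quartiles 0 and 2), 360 (45.2%) had none, and 10 including Sox2 had at least 8. That is 1.26% (0.604% to 2.3%), and 7 of the 10 had more peaks than Sox2. The window of 500 kb around the Sox2 TSS held 16 peaks per Mb, against 3.32 over chromosomes 1 to 19 and X and 2.61 on chromosome 3, where 417 peaks were listed.

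**Figure D2:**
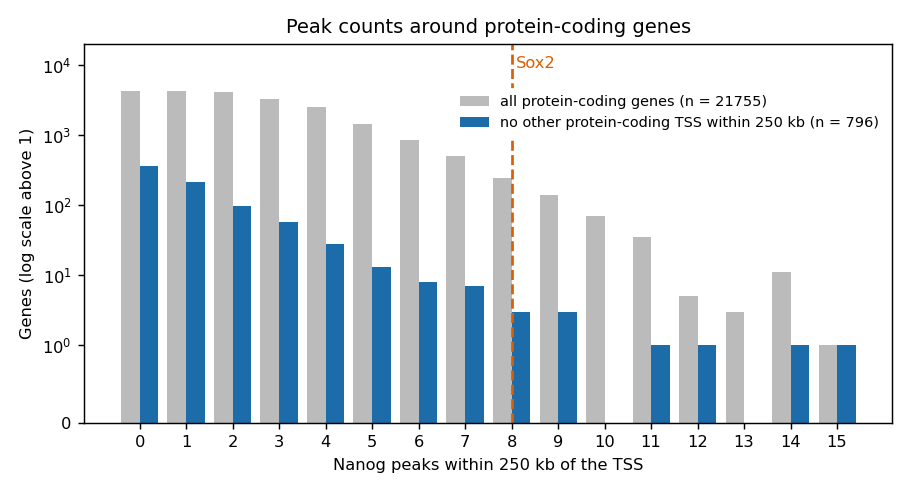
Number of protein-coding genes (vertical axis, logarithmic above 1) by the number of Nanog peaks within 250 kb of their TSS (horizontal axis), for all 21755 genes (grey) and for the 796 with no other protein-coding TSS in that window (blue). The dashed line marks Sox2 at 8 peaks, to the right of the median of 2 for all genes and of 1 for the 796.

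The place of Sox2 among genes depended on the distance considered. Within 5 kb it had 2 peaks (A and B), which 0.395% of protein-coding genes had or exceeded, and the median gene had none. Within 10 kb it still had 2 (1.3% of genes), and within 25 kb it had 3 (0.91%). Within 50 kb the number was again 3, a count reached by 3.53% of genes. Within 100 kb it had 5 (1.94%), against a median of 1. Within 500 kb it had 9, which 12.3% of genes reached, and within 1000 kb it had 11, which 38.6% of genes reached, with medians of 4 and 9. Beyond 250 kb the Sox2 window gained few peaks while the median gene gained more, so the share of genes with as many rose.

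The peaks were also unevenly placed about the gene. In the 250 kb downstream of the TSS, in the direction of transcription, Sox2 had 7 peaks, and 0.515% of protein-coding genes (112) had as many. Upstream it had 1, which was the median and which 60.3% of genes reached. Of the 242 other genes with 8 peaks, 60 also had at least 7 on a single side, be it upstream or downstream. In bins of 50 kb, Sox2 had 1 peak in the bin just upstream of the TSS, then 2, 2 and 3 in the bins running downstream to 150 kb, and 0 in the remaining 6. The mean of all protein-coding genes was between 0.232 and 0.267 peaks in every bin. As many peaks as at Sox2 were found for 20.8%, 4.17%, 3.7% and 1.0% of genes in the 4 filled bins, the last being the bin from 100 to 150 kb that holds peaks F, G and H.

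**Figure D3:**
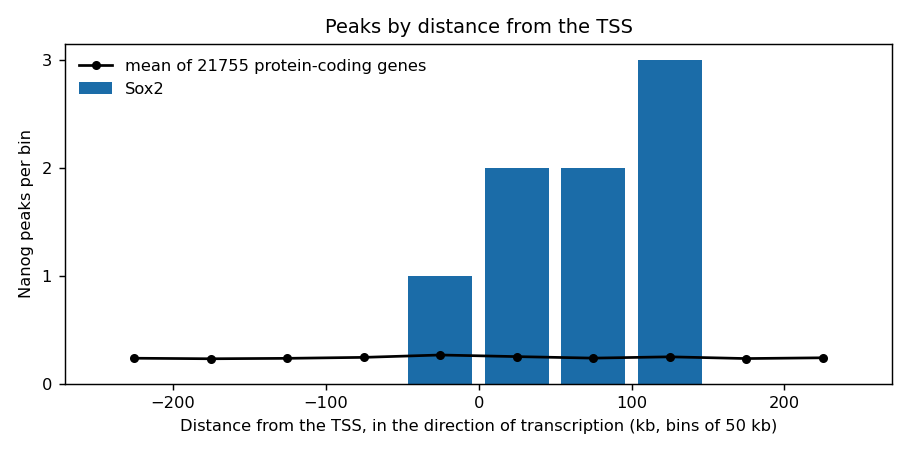
Nanog peaks per 50 kb bin (vertical axis) by distance from the TSS in the direction of transcription (kb, horizontal axis), as bars for Sox2 and as a black line for the mean of 21755 protein-coding genes. The bars run from 50 kb upstream to 150 kb downstream and reach 3 peaks, while the line stays between 0.232 and 0.267.

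The genes whose profile over these 10 bins was most like that of Sox2 were ranked by the sum of absolute differences in peak number. Nipal4 (chromosome 11, 8 peaks) and Gm14137 (chromosome 2, 6 peaks) each differed by 2 peaks in all. Nxn (chromosome 11, 9 peaks), Akap2 (chromosome 4, 7 peaks) and Ccpg1 (chromosome 9, 7 peaks) differed by 3, as did further genes, and 21 genes in all differed by 3 or fewer. The likeness is one of peak positions alone. None of these 5 genes belongs to the pluripotency or Sox family lists.

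Distances between neighbouring peaks at Sox2 were taken inside the 250 kb window, which limits how long they can be. The gaps of 411.3 kb and 556.2 kb to the next peaks outside were left out. From A to H, the distances between the centres of neighbours were 7.667, 14.55, 66.54, 10.28, 11.49, 1.105 and 3.337 kb, with a median of 10.28 kb. The median over all 8715 neighbouring pairs of the list was 122.9 kb (quartiles 35.13 and 327.9 kb). That set includes such long gaps, so the shorter median at Sox2 follows in part from the choice of the window. The closest pair was F and G, with 646 bp between their edges, and 2.27% of all neighbouring pairs had centres as close. The gap from C to D, the widest within the group, was still shorter than the median gap of the list. Peaks F, G and H had their centres within 4.442 kb. Of 8695 runs of 3 neighbouring peaks, 29 (0.334%, 0.223% to 0.479%) were as close together, and the median run of 3 spanned 337.3 kb.

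Neighbouring peaks were joined into stretches when no more than 12.5 kb separated their edges, the distance commonly used to join the parts of super-enhancers. Peaks D to H formed a stretch of 5 (chr3:34734948-34761615), from 84.54 to 111.2 kb downstream of the TSS. It spanned 26.67 kb, of which 8.95% was covered by peaks. A and B formed a stretch of 2 spanning 7.963 kb, and C stood alone. The list held 956 stretches of 2 or more peaks, 155 of 3 or more, and 8 of 5, and none had more than 5. Among the 8 stretches of 5, the one at Sox2 had the longest span. Its summed peak width, 2.386 kb, was the largest of all 956 stretches. A stretch of at least 5 peaks within 250 kb of the TSS was found for 38 protein-coding genes, which is 0.175% (0.124% to 0.24%), again with neighbours sharing stretches.

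The other 7 stretches of 5 had as their nearest protein-coding TSS those of Arhgap21, Bcat1, Cenpv, Med13l, Ppp1r9a, Rhpn2 and Serp2, named here after their values were seen. Their spans ran from 10.48 kb (Serp2) to 25.33 kb (Ppp1r9a), and their summed widths from 1.457 kb (Serp2) to 2.327 kb (Med13l). The distance of the 8 stretches from the nearest protein-coding TSS ranged from 0.345 kb (Rhpn2) to 277.3 kb (Arhgap21), with a median of 90.445 kb. With 84.77 kb the stretch at Sox2 was a little below this median, and 4 of the 8 lay farther from a protein-coding TSS. None of these 7 genes is on the pluripotency list.

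**Figure D4:**
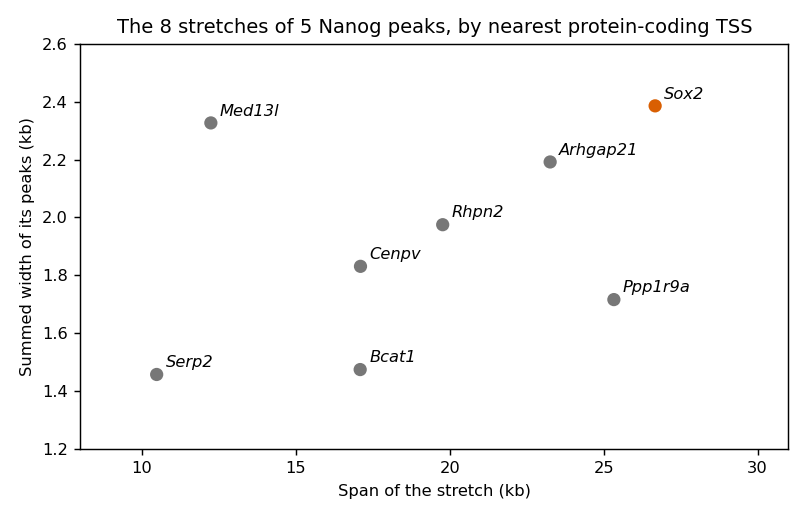
Summed width of the peaks (kb, vertical axis) against the span (kb, horizontal axis) of the 8 stretches of 5 Nanog peaks, each named by its nearest protein-coding TSS, with Sox2 in orange. The stretch at Sox2 lies farthest right and highest, with 26.67 kb and 2.386 kb. The axes do not start at 0.

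Peaks of the downstream stretch were wider than those near the gene. Their widths were 389 to 559 bp (median 457 bp), and those of A, B and C were 258 to 333 bp (median 268 bp), so the ranges did not overlap. Width in such a list depends on the peak caller and on the extent of enriched reads, and is not a measure of strength. The median of all 8 was 420.5 bp, against 319 bp for the whole list (quartiles 265 and 393 bp, narrowest 235 bp), and 6 of the 8 were at or above that median. Peak E ranked 367th in width, with 4.24% of all peaks as wide, and F ranked 504th, with 5.84%. H and D were in the widest 12.8% and 13.6%, and G in the widest 26.2%. Of all peaks, 44.7% were as wide as A, 73.9% as wide as C and 79.1% as wide as B. The 35 peaks of the other 7 stretches of 5 had a median width of 360 bp and ranged from 235 to 755 bp, which includes all 5 widths at Sox2. The 503 peaks in stretches of 3 or more had a median of 326 bp, and the 6630 peaks in no stretch a median of 318 bp.

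The base composition of the 8 peaks was unremarkable. Their GC content ranged from 42.2% (E) to 52.2% (C), with a median of 47.3%, against 47.7% over all peaks and 44.5% in the 500 kb window. Each peak held between 4 (H) and 10 (G) CpG dinucleotides. Repeats marked in the reference took up none of C, 4.6% of H, 7.81% of A and 17.8% of B. In the other 4 peaks, D to G, they took up between 22.1% and 27.2%. The whole window was 30.1% repeats, which is above the share in each of the 8. Of all 8735 peaks, 23.4% held no marked repeat, as C did, and 9.0% held no CpG. Neither the repeat share nor the CpG number was compared further with other peaks. Only E and G shared an exact run of 14 bases, of the 28 pairs of these peaks. Pairs of other peaks were not searched, so this has no comparison.

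Motifs of ESC factors were searched in the peaks on both strands, and each count is given beside the share of all 8735 peaks with the motif. The share among 17236 control windows, of the same width as each peak and 1 kb beyond its edges, follows it. A match is a description of the letters, not a bound site. The composite motif was searched as the Sox part CNTTGT, then 1 free base, then the octamer part ATGCNAA, with up to 2 mismatches in the 11 fixed letters. It was found in 1 of the 8 peaks, B, against 26.2% of all peaks (25.3% to 27.1%) and 8.6% of control windows. The match in B lay 30 bp from the peak centre and had 1 mismatch, A13T, counted from 1 at the 5′ end of the Sox part with the motif's letter given before the position and the letter of the peak after it. Of all peaks, 6.61% (577) held a match as good or better. In the downstream stretch, the best places in D and G had 3 mismatches, which 68.7% of all peaks reached, and those in E, F and H had 4, as did A and C, which 98.5% reached. The downstream stretch therefore held no composite by this definition.

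The octamer alone, ATGCAAAT, the site of Oct4, was found in 0 of the 8 (5.72% of all peaks, 2.19% of control windows). The Sox site, searched as CCATTGT or CCTTTGT, was found in 3 peaks, B, E and H (28.2% and 11.6%). In B it overlapped the composite, so these are not separate matches. In E it lay 86 bp and in H 149 bp from the centre. The Nanog core, CCATTA, was found in D, E and G (18.1% and 13.0%), at 110, 150 and 47 bp from the centre. The extended form of it, GCCATTAA, was found in 0 (2.14% and 0.859%). Within the 200 bp around the peak centre, the Sox site was found in 2 peaks (B and E) and the Nanog core in 1 (G). The share of all peaks was not counted within these 200 bp, so these counts have no comparison. F held neither the Sox site nor the Nanog core over its whole width.

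Motifs of other factors were searched in the same way. Klf, for the Krüppel-like factors, was searched as GCCACACCC or GCCACGCCC or GCCCCACCC or GCCCCGCCC and found in D (9.0% of all peaks and 2.29% of control windows). The site of the orphan nuclear receptor Esrrb, TCAAGGTCA, was found in G (3.53% and 1.17%), 86 bp from the centre. The site of Stat factors, which carry the signal of leukemia inhibitory factor, searched as TTCCNGGAA, was found in B and E (1.33% and 1.02%), at 95 and 194 bp from the centre. The E-box CACGTG, the site of Myc and related factors, was found in B (4.24% and 4.21%). The AP-1 site, TGACTCA or TGAGTCA, was found in D and H (8.04% and 6.16%), at 21 and 36 bp from the centre. The Tead site GGAATG, of the Hippo pathway's factors, was found in 0 of the 8 (25.4% and 17.5%), and the CTCF motif in 0 (0.458% and 0.249%). In the 14 control windows beside the 8 peaks, CTCF occurred in 1, the Tead site in 5, the Sox site in 4, the AP-1 site in 3, the Nanog core in 2 and the composite and Esrrb sites in 1 each.

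Counting how many of 6 kinds of motif (composite, octamer, Sox, Nanog core, Klf and Esrrb) a peak held, B, D, E and G held 2, as did or exceeded 23.2% of all peaks. The 2 kinds in B are the composite and the Sox site, which overlap and are not separate matches. H held 1, and A, C and F held 0, while the median of all peaks was 1. No peak of the 8 held 3 kinds. The number of kinds did not follow width in order, since E, the widest with 559 bp, held 2 and F, the next widest with 529 bp, held none.

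**Figure D5:**
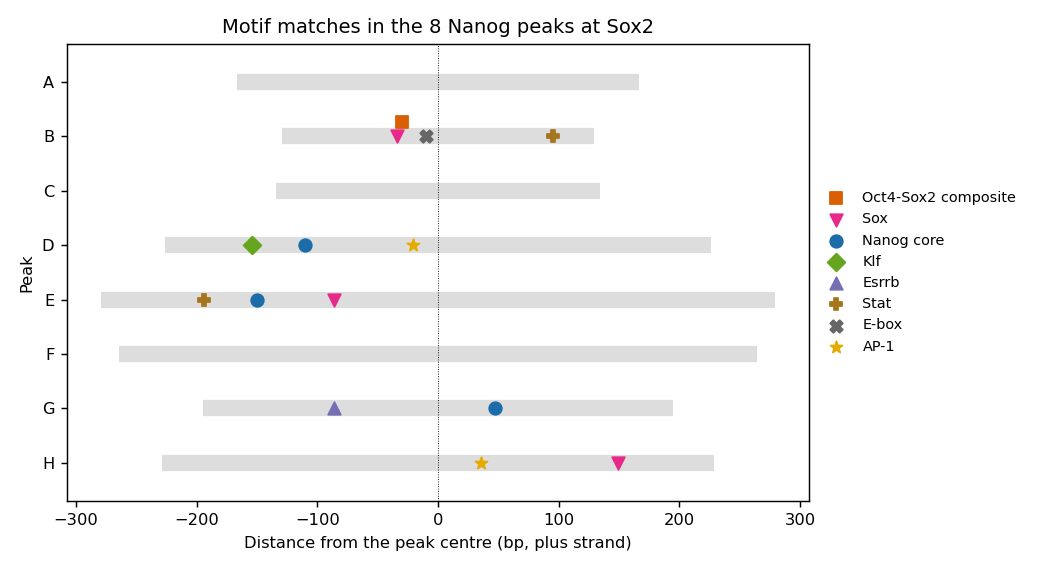
Motif matches (coloured symbols) along the 8 Nanog peaks at Sox2 (grey bars, drawn to scale), by distance from the peak centre (bp, horizontal axis). The composite match in B is raised above its bar because it overlaps the Sox match, and peaks A, C and F hold no symbol.

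The pluripotency list holds 17 genes that the study names. It calls Pou5f1, Sox2 and Nanog pluripotency regulators, and the others further factors and cofactors of reprogramming. The study names them among genes with sites that the reprogramming factors bind early and others bound late, and as induced during reprogramming. They are therefore no independent evidence. Among these 17, Sox2 had more peaks within 250 kb than all but Nanog. The other 16 had a median of 5 peaks (0 to 11). Nanog itself had 11, 6 upstream and 5 downstream, in a window that also held 12 other protein-coding TSSs. Pou5f1, which encodes Oct4, had 6 peaks with 18 other protein-coding TSSs in its window. The closest peak was 1.023 kb from the TSS of Pou5f1 and 4.868 kb from that of Nanog, against 3.68 kb at Sox2. Nr5a2 with 4 peaks and Sall1 with 5, named after their values were seen, had no protein-coding neighbour within 250 kb, like Sox2. Lin28b, named likewise, was the one gene of the list with no peak.

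The Sox family, taken by gene symbol, gives a comparison by family membership rather than by function in ESCs. The 18 other Sox genes had a median of 2 peaks within 250 kb, the same as all protein-coding genes, with a range of 0 to 11. At least 8 peaks were found for 3 of them, Sox13 with 11, Sox15 with 9 and Sox30 with 9. Each had other protein-coding TSSs in its window, 11 at Sox13, 34 at Sox15 and 6 at Sox30, and the closest peak was 26.55, 17.17 and 40.12 kb away. The window of Sox30 overlaps that of Nipal4, whose TSS is 186.2 kb away, so they share peaks. Sox1 and Sox3, which form the SoxB1 group with Sox2, had 3 peaks and 1 peak, the closest at 104.6 and 120.8 kb. The closest peak was thus nearer at Sox2 than at both of these, but this was not particular to Sox2 in the family. Sox12 and Sox14 had a peak nearer still, at 0.882 and 3.442 kb, and Sox21 had 7 peaks, the closest at 6.596 kb. Sox12, Sox14 and Sox21 were named after their values were seen. Sox4, Sox5 and Sox10, named after their values were seen, had no peak.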

How the data were processed

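Nanog occupancy was profiled by ChIP-seq in Bruce-4 ESCs in 1 immunoprecipitated sample, with 1 input sample that was not analysed here. Per the submitters' processing notes and the study's methods, the authors checked reads with FastQC, aligned them to mm10 with Bowtie2, removed low-quality, duplicate, mitochondrial and blacklisted reads with bedtools and SAMtools, and called peaks with MACS2. The methods state a version for FastQC only, and subtraction of the input for signal tracks, which were not used here. The threshold of the peak call and whether it used the input as control are not given in the sources used here. The deposited list holds chromosome, start and end with no score and no read counts, so the reads behind each peak are unknown. Of 8860 lines, 123 repeated an interval and were dropped, which left 8737 distinct peaks. Those on chromosomes 1 to 19 and X, 8735 in number, were used. Duplicate removal and the threshold decide which weak sites are listed.

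Sequence came from GRCm38 and genes from GENCODE vM21. Positions are 1-based. A gene's TSS was the 5′ end of its extent, and distances were taken from the middle base of a peak, except gaps between edges. Peak counts were made for 21755 protein-coding genes. Motif control windows with an N base or overlapping a peak were left out. Lists were the pluripotency list of 17 genes named by the study and 19 Sox family genes, Sox2 in both. Named were Sox2, genes in its window, its protein-coding neighbours, list genes with as many peaks, Pou5f1, Nanog, Sox1, Sox3 and the 5 genes most alike in peak positions, and other names are marked as chosen later. Not every list gene is reported here. The Sox2 peaks, lists and motifs were chosen with earlier results of these data known. Intervals are exact 95% Clopper-Pearson and cover counting error only. With 1 library no test was possible, and shares of genes are descriptions. Counting and motif search were tested on simulated data. Alternatives changed the window, the peak set, the genes, the chaining distance and the motif settings. Python 3.11.15, numpy 2.4.6, pandas 2.3.3, scipy 1.17.1 and matplotlib 3.10.9 were used.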

Additional observations from a re-analysis of the deposited data

How the results depend on the processing

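Of 57 alternative values, 34 stayed within the set limits and 23 moved. Among those that moved, 6 were counts of motifs other than the composite and Sox site, or the share of control windows with the composite. That share was 8.01% with control windows 5 kb beyond each edge, against 8.6%. The share of protein-coding genes with as many peaks as Sox2, 2.33% within 250 kb, was 3.53% within 50 kb (3 peaks at Sox2), 1.94% within 100 kb (5 peaks) and 12.3% within 500 kb. It was 2.54% with all lines of the list, 2.85% with the TSS of every transcript, 1.01% with peaks at or above the median width, 1.26% among genes without a protein-coding neighbour and 7.85% with peaks nearer than 5 kb left out. With neighbours chained within 5 kb the downstream stretch had 3 peaks, and 1.96% of genes had a stretch as large. That share was 1.0% with chaining within 25 kb and 0.12% with peaks within 300 bp merged, against 0.175%. The genes of the pluripotency list with as many peaks as Sox2, 1 beside it at 250 kb, were 3 at 100 kb and 5 at 500 kb. With up to 3 mismatches, 3 Sox2 peaks held the composite motif in place of 1. These changes follow from the altered distances, peak sets and letters. The count of 8 peaks held when every line was counted, when edges were used for distance and when peaks within 300 bp were merged. None of these settings could have altered it. Each of the 8 peaks was listed on 1 line, and the closest pair had 646 bp between their edges. The next peaks outside lay 415.3 and 667.2 kb from the TSS. Without the peaks narrower than 319 bp, the median of the list, the count fell to 6. No paired analysis was possible because the series holds a peak list of 1 library. The list gives no strength or read count per peak and has no replicate, so the certainty of a single peak, or of its absence elsewhere, was not assessed.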
